A study of Mus musculus with 18 samples.

Results

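Crystallins are the main soluble proteins of the lens fibre cell. The alpha crystallins Cryaa and Cryab belong to the small heat shock proteins, which bind unfolding proteins and keep them from aggregating, whereas the beta and gamma crystallins share another fold and pack densely in the lens. Several of them are also made outside the lens, and Cryab in particular is known from retinal glia, heart and muscle. The 10 genes described here are the alpha crystallins Cryaa and Cryab, the acidic beta crystallins Cryba1, Cryba2 and Cryba4, the basic beta crystallins Crybb1, Crybb2 and Crybb3, and the gamma crystallins Crygs and Crygd. They are 10 of the 20144 genes with a symbol on the array, taken through the RefSeq accession of each probe, and they carry 14 of its 39429 probes. Cryaa, Cryab, Crybb1 and Crybb2 have 2 probes each and the other 6 genes have 1.

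The tissue was whole mouse retina, collected 3 days after crush of the optic nerve, and the control was the uninjured eye. All mice, in every group, carried floxed alleles of the gene for dual leucine zipper kinase (DLK, Map3k12) and had been given tamoxifen at 10 to 12 weeks of age. Cre-positive mice also carried a Cre-ERT transgene under the CAG promoter, which is active in many tissues and not in neurons alone, and per the labels a small and variable amount of DLK protein persisted after dosing. There were 5 Cre-positive crushed, 5 Cre-positive uncrushed, 3 Cre-negative crushed and 4 Cre-negative uncrushed retinas, 1 array each. One more array, from a Cre-negative mouse, is called crushed in one label field and uncrushed in the others. It is given below as the array with disagreeing labels and entered no group. Nothing in the labels pairs the 2 eyes of a mouse, so p-values measure the spread between these samples.

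Each array compared retinal RNA in the Cy5 channel with a universal mouse reference RNA in the Cy3 channel, and values below are log2 of Cy5 over Cy3 after background correction and loess normalization, unless scanner intensity is named. Median Cy5 spot intensity was 227.5 to 278 per array over a local background of 72.5 to 84, between 68% and 76.2% of probes were well above background, and no probe was saturated. Map3k12 averaged 2.04 ± 0.20 and 2.0 ± 0.16 in Cre-positive crushed and uncrushed retinas (SD, n = 5 each), against 2.51 ± 0.17 in Cre-negative crushed (SD, n = 3) and 2.43 ± 0.16 in Cre-negative uncrushed retinas (SD, n = 4). The Cre difference was -0.47 in crushed retinas (limma unadjusted p = 0.00092, adjusted p = 0.061). In uncrushed retinas it was -0.43 (limma unadjusted p = 0.00098, adjusted p = 0.88). Whether the Map3k12 probe lies in the deleted part of the gene is not given in the sources used here. All 12 Müller glia markers and at least 11 of 12 ganglion cell markers were well above background on every array.

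The crystallins differed in how far they stood out on 2 arrays. Cryaa, Crygs, Cryba1, Cryba2 and the second probe of Crybb2 were several times higher there than on the rest. The brighter probes of Cryab and Crybb1 were there at 1.11 to 1.19 times the median of the other 16. Cryba4, Crybb3, Crygd and the brighter Crybb2 probe lay between, at 1.24 to 1.73 times that median on the same 2 arrays. These arrays were replicate 5 of the Cre-positive crushed group and the array with disagreeing labels, the first from a Cre-positive and the second from a Cre-negative mouse. Tests that use the Cre-positive crushed group are therefore given with and without that replicate. Some of these multiples stand on signals near background. The second Crybb2 probe was well above background on 3 of the 17 labelled arrays, the brighter Crybb1 probe on 7, and Cryba2 on 10. Median Cy5 intensity on the 16 labelled arrays other than replicate 5 was 85 for the second Crybb2 probe and 118 for Cryba2.

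Cryab, the alpha B crystallin, was read on every array with a strong signal. Its brighter probe gave Cy5 intensities of 5253, 5712, 3650, 6675 and 6654 in Cre-positive crushed retinas and 4109, 5478, 5272, 4670 and 6144 in Cre-positive uncrushed retinas. It gave 4822, 5119 and 5131 in Cre-negative crushed retinas and 6062, 5458, 5718 and 5832 in Cre-negative uncrushed retinas. These Cy5 intensities were lower in all 3 Cre-negative crushed than in the 4 Cre-negative uncrushed retinas, but the log2 ratios of these groups overlapped, at -0.12 to 0.11 and -0.19 to -0.05. The log2 ratio averaged -0.07 ± 0.17 and -0.13 ± 0.18 in Cre-positive crushed and uncrushed retinas (SD, n = 5 each), against -0.03 ± 0.13 (SD, n = 3) and -0.10 ± 0.06 (SD, n = 4) in Cre-negative crushed and uncrushed retinas. The crush difference was 0.06 in Cre-positive retinas (95% interval -0.13 to 0.25) and 0.06 in Cre-negative retinas (95% interval -0.16 to 0.29), and their difference, the Cre-by-crush interaction, was 0.00 (95% interval -0.30 to 0.29). Its second probe, tested with every probe kept separate, was 0.15 higher in Cre-positive than in Cre-negative crushed retinas (95% interval 0.04 to 0.27, unadjusted p = 0.012, limma adjusted p = 0.22), where the brighter probe gave -0.04. Its interaction was 0.16 (95% interval 0.00 to 0.31, unadjusted p = 0.045, limma adjusted p = 0.58), against 0.00 for the brighter probe. Without Cre-positive crushed replicate 5 the second probe gave 0.13 (limma adjusted p = 0.36) and 0.14 (limma adjusted p = 0.67) for these comparisons. The estimates of the 2 probes differed in both comparisons, but their 95% intervals overlapped and the difference between probes was not tested. Neither probe passed the test in either comparison.

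Cryaa, the alpha A crystallin, behaved differently. The log2 ratios of its brighter probe were -0.01, 0.44, 0.25, 0.27 and 3.18 in Cre-positive crushed retinas and 0.26, 0.21, 0.38, 0.37 and 0.08 in Cre-positive uncrushed retinas. They were 0.12, 0.77 and 0.23 in Cre-negative crushed retinas and 0.60, 1.37, 0.41 and 0.03 in Cre-negative uncrushed retinas. A single crushed retina stood far above its 4 companions, which lay between -0.01 and 0.44. Cy5 intensity on that array was 3767, against 173 to 612 on the other 16 labelled arrays, and it was 2526 on the array with disagreeing labels. The Cy3 intensity of the same spot was also raised there, at 228 and 193 on those arrays against 76 to 124 on the other 16, so the gap in the ratio was smaller than the gap in Cy5. The second Cryaa probe was not well above background on any array and stayed between -0.23 and 0.24.

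Crygs, gamma S crystallin, a protein of the adult lens cortex, repeated the pattern of Cryaa. Its log2 ratios were 0.38, 0.81, 0.42, 0.15 and 3.49 in Cre-positive crushed retinas and 0.31, 0.06, 0.51, 0.89 and 0.16 in Cre-positive uncrushed retinas. They were 0.75, 1.43 and 0.43 in Cre-negative crushed retinas and 0.88, 2.0, 0.42 and 0.19 in Cre-negative uncrushed retinas. The next highest values after the 2 high arrays, 2.0 and 1.43, came from the same Cre-negative arrays, uncrushed replicate 2 and crushed replicate 2, that were next highest for Cryaa. Crygd, a gamma crystallin of the lens nucleus, spanned only 0.14 to 0.67 on the 16 other labelled arrays and was 0.79 on Cre-positive crushed replicate 5. Its Cy5 intensity there, 302, lay inside the range of 161 to 546 of those arrays, while its Cy3 intensity was 88 in a range of 76 to 194. For Crygd the higher ratio on that array therefore did not go with a higher retinal signal. Gamma crystallin genes are close copies of each other, the probe sequences were not used here, and a signal shared with Crygc or Cryge was not tested.

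Among the acidic beta crystallins, Cryba1 had the best technical precision, because its probe was printed 10 times on each array. Its log2 ratio was 1.78 on Cre-positive crushed replicate 5, where the 9 spots used ran from 1.56 to 1.95, and 0.10 to 0.20 in the other 4 Cre-positive crushed retinas. Cre-positive uncrushed retinas had 0.16 to 0.25. Cre-negative retinas had 0.10 to 0.35 when crushed, and 0.21 to 0.61 when not crushed. The spots of 1 array had an SD of 0.04 to 0.16, so the high value held across spots. Cryba2 was 2.44 on the same array, against -0.14 to 0.74 on the 16 others, and Cryba4 was 0.86 against -0.12 to 0.17. Both were thus highest on the array on which Cryaa and Crygs were highest.

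The basic beta crystallins were mixed. Crybb1 was 0.32 on Cre-positive crushed replicate 5, inside the range of -0.11 to 0.34 of the other 16 labelled arrays, and its second probe was 0.13 in a range of -0.12 to 0.38. Crybb3 was 1.03, against 0.33 to 0.75 on those 16. The brighter Crybb2 probe was 0.56 against -0.19 to 0.20, and the second Crybb2 probe was 1.71 against -0.03 to 0.53. The 2 Crybb2 probes thus agreed in direction and differed in size, at 1.48 and 3.03 times the median of the 16 arrays. Crybb1 and the second Cryaa probe were the members whose ratio was not above all others on that array, apart from the brighter Cryab probe, at 0.10 in a range of -0.46 to 0.11.

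**Figure D1:**
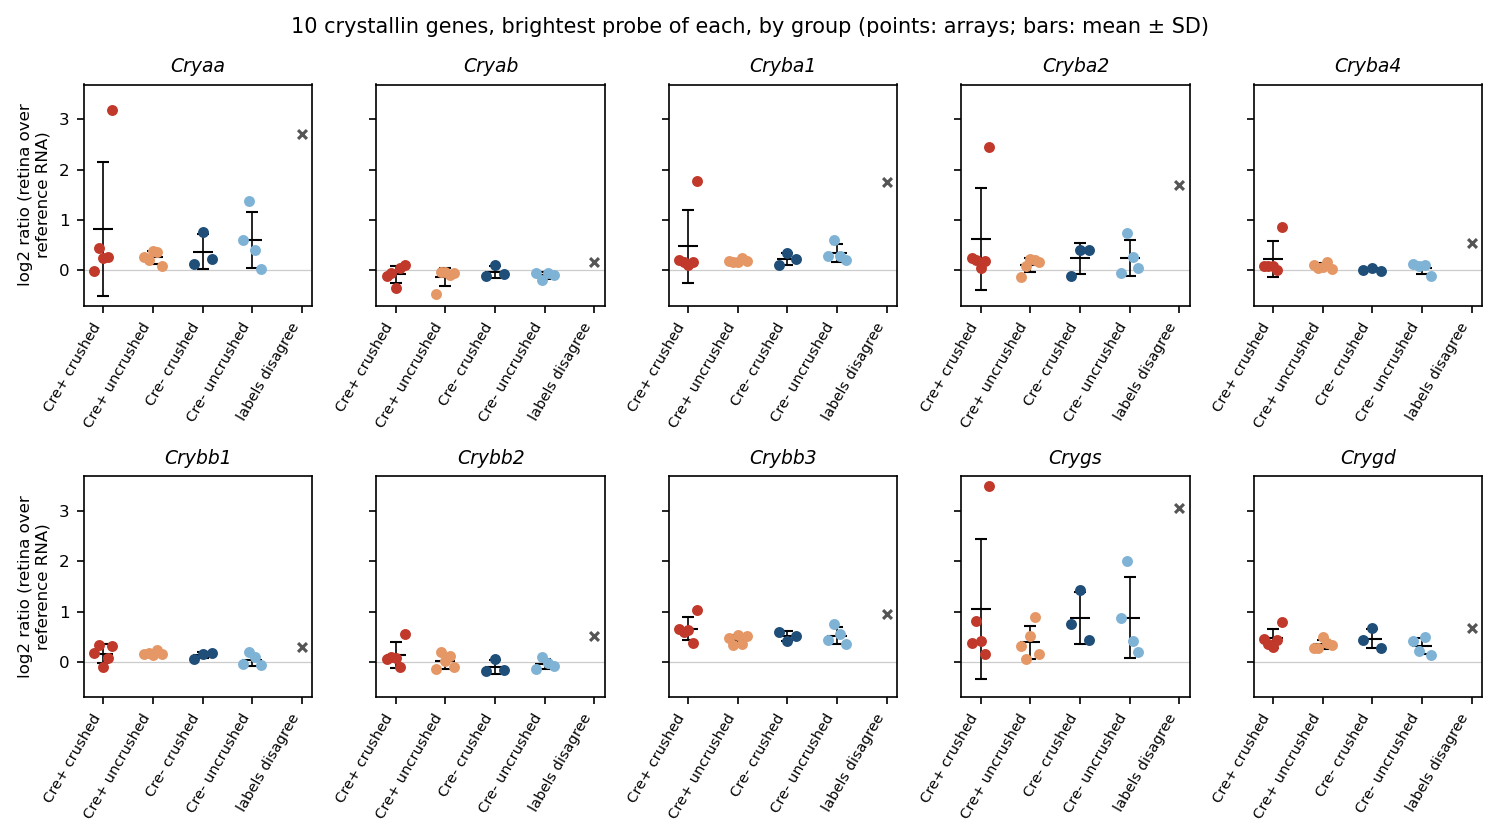
The log2 ratio of retinal over reference RNA (vertical axis) is plotted for the brightest probe of each of the 10 crystallins, with 1 point per array, a cross for the array with disagreeing labels, and bars for the mean and SD of each group. In Cryaa, Cryba1, Cryba2, Cryba4 and Crygs the Cre-positive crushed group (Cre+ crushed) has 1 high point, at 3.18 for Cryaa and 3.49 for Crygs, and the other points of all groups overlap.

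The array with disagreeing labels carried nearly the same set of high crystallins. It lay above all 7 labelled Cre-negative arrays for 13 of 14 crystallin probes, where 13.4% of all 39415 probes with a ratio did so. Relative to the median of the 16 labelled arrays other than Cre-positive crushed replicate 5, Cryaa was at 5.45 times, Crygs at 6.17 times, Cryba1 at 2.95 times and Cryba2 at 2.82 times that ratio on it, and on replicate 5 the same genes were at 7.53, 8.38, 3.01 and 4.75 times. Background-subtracted Cy5 intensity above the median of those 16 arrays was 3541 on replicate 5 and 2301 on the array with disagreeing labels for Cryaa, a ratio of 1.54. The same ratio was 1.34 for Crygs, 1.51 for Cryba2, 1.16 for the second Crybb2 probe and 0.89 for Cryba1. The mean log2 ratio over the 10 crystallins was 1.46 and 1.24 on these 2 arrays, 0.59 on Cre-negative uncrushed replicate 2, 0.44 on Cre-negative crushed replicate 2, and 0.06 to 0.31 on the other 14. The 4 arrays with the highest means lay on slides 2 and 5, 2 on each, and the other 3 arrays of those slides had means of 0.10, 0.20 and 0.25.

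The crystallins were then compared between the groups. None of the 10 was called in any of the 5 comparisons at a limma adjusted p under 0.05. For the crush difference in Cre-positive retinas 0.769% of all 25359 genes tested were called, and 9 of the 10 crystallins had a positive difference, with a median of 0.18 against 0.0004 over all genes. The log2 differences were 0.66 for Crygs (95% interval -0.38 to 1.70), 0.56 for Cryaa (95% interval -0.35 to 1.48), 0.52 for Cryba2 (95% interval -0.18 to 1.21) and 0.29 for Cryba1 (95% interval -0.19 to 0.78). One crystallin, Crybb3, had an unadjusted p under 0.05, with a difference of 0.23 (95% interval 0.02 to 0.43, unadjusted p = 0.032, limma adjusted p = 0.47).

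Leaving out Cre-positive crushed replicate 5 brought most of these differences near 0. Crygs then differed by 0.05 (95% interval -0.57 to 0.67), Cryaa by -0.02 (95% interval -0.44 to 0.39), Cryba2 by 0.06 (95% interval -0.23 to 0.36) and Cryba1 by -0.03 (95% interval -0.18 to 0.12). The median over the 10 was 0.02, 6 of 10 were positive, none was called and none had an unadjusted p under 0.05, with 0.509% of all genes called. Crybb3 kept a difference of 0.13 (95% interval -0.04 to 0.30, limma adjusted p = 0.82). Its values in the 4 remaining crushed retinas were 0.38 to 0.66, against 0.33 to 0.53 in uncrushed Cre-positive retinas, and the groups overlapped.

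The same arrays can also be compared within slides, with 2 arrays per group on slide 1 and 1 per group on slides 2, 3 and 4. On slide 2, which held replicate 5 and 1 uncrushed Cre-positive retina, the crushed-minus-uncrushed difference was 2.92 for Cryaa, 3.18 for Crygs and 1.61 for Cryba1. On slides 1, 3 and 4 it was -0.11, -0.22 and 0.36 for Cryaa, -0.42, 0.31 and 0.65 for Crygs, and -0.07, 0.03 and -0.02 for Cryba1. The sign thus changed between slides for all 3 genes, but for Cryba1 the values on slides 1, 3 and 4 were all close to 0. Differences between slides were not tested. Slide 5 held no Cre-positive retina.

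In Cre-negative retinas, without the array with disagreeing labels, crush was followed by no call among the 10 crystallins, with 2.17% of all genes called and no unadjusted p under 0.05. Differences ran from -0.23 for Cryaa (95% interval -1.34 to 0.88) to 0.15 for Crygd (95% interval -0.09 to 0.39), and 3 of 10 were positive, with a median of -0.01 against 0.0015 over all genes. Crygs, at 0.87 ± 0.51 in crushed retinas (SD, n = 3) and 0.88 ± 0.81 in uncrushed retinas (SD, n = 4), differed by 0.00 with a 95% interval of -1.26 to 1.25. The second high array is from a Cre-negative mouse, and with it placed among the crushed retinas the differences turned to 0.36 for Cryaa (95% interval -0.86 to 1.57), 0.26 for Cryba1 (95% interval -0.43 to 0.96) and 0.54 for Crygs (95% interval -0.76 to 1.84), with 0 of 10 called by limma and none at an unadjusted p under 0.05. Without Cre-negative uncrushed replicate 2 they were 0.03 for Cryaa, -0.03 for Cryba1 and 0.37 for Crygs. Within slides the Cryaa difference was -1.14 on slide 2, 0.10 on slide 3 and 0.36 on slide 5. Without Cre-positive crushed replicate 5, which enters this comparison only through the shared estimate of spread, the interval for Cryaa was -0.70 to 0.24, and 0 of 10 were called with 2.68% of all genes called and none of the 10 at an unadjusted p under 0.05 by limma. With all arrays the intervals leave room for changes of over 1 log2 unit in Cryaa and Crygs, while that for Cryab ended at 0.29.

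The Cre-by-crush interaction was not called for any crystallin, with 0.418% of all genes called and no unadjusted p under 0.05 among the 10. It was 0.79 for Cryaa (95% interval -0.65 to 2.23) and 0.67 for Crygs (95% interval -0.96 to 2.29), and without Cre-positive crushed replicate 5 it was 0.20 and 0.05. The median of the 10 was 0.21, against 0.0028 over all genes, and 0.06 without that replicate, where limma again called 0 of 10, with none at an unadjusted p under 0.05. Cre-positive and Cre-negative crushed retinas gave no call either by limma, with 1.16% of all genes called and no unadjusted p under 0.05 among the 10. There the difference was 0.45 for Cryaa and 0.18 for Crygs, the median was 0.19 against 0.0088 over all genes, and 8 of 10 were positive. Without replicate 5 the same differences were -0.14 (95% interval -0.61 to 0.33) and -0.43 (95% interval -1.14 to 0.27), the median was -0.07, 3 of 10 were positive and none was called by limma or had an unadjusted p under 0.05, with 0.982% of all genes called.

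For Cryaa and Crygs the Cre-positive uncrushed group had the smallest SD of the 4. In uncrushed retinas the Cre difference was not called for any crystallin by limma, with 0.0118% of all genes called and no unadjusted p under 0.05 among the 10. Cryaa averaged 0.26 ± 0.12 in Cre-positive uncrushed retinas (SD, n = 5) and 0.60 ± 0.56 in Cre-negative uncrushed retinas (SD, n = 4), a difference of -0.34 (95% interval -1.32 to 0.63). Crygs differed by -0.49 (95% interval -1.59 to 0.61), and the median of the 10 was -0.06, against 0.0071 over all genes. Without Cre-positive crushed replicate 5 in the shared spread, 0 of 10 were called by limma, with 0.00394% of all genes called, and 1 had an unadjusted p under 0.05, Cryba1 at -0.16 (limma adjusted p = 0.86). The 2 groups overlapped for Cryaa and Crygs. Beside this comparison stands Cre-negative uncrushed replicate 2, whose crystallin mean of 0.59 was the highest among uncrushed retinas. Without that array the difference was -0.09 for Cryaa (95% interval -1.13 to 0.96), -0.11 for Crygs (95% interval -1.25 to 1.03) and -0.07 for Cryba1 (95% interval -0.63 to 0.50). Ordered by mean Cryaa ratio, the groups ran Cre-positive crushed (0.83 ± 1.33), Cre-negative uncrushed (0.60 ± 0.56), Cre-negative crushed (0.38 ± 0.35) and Cre-positive uncrushed (0.26 ± 0.12), and no 2 neighbours in that order differed by more than the larger of their SDs. Without replicate 5 the Cre-positive crushed mean was 0.24 ± 0.19 (SD, n = 4), and that group moved to the last place in the order.

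**Figure D2:**
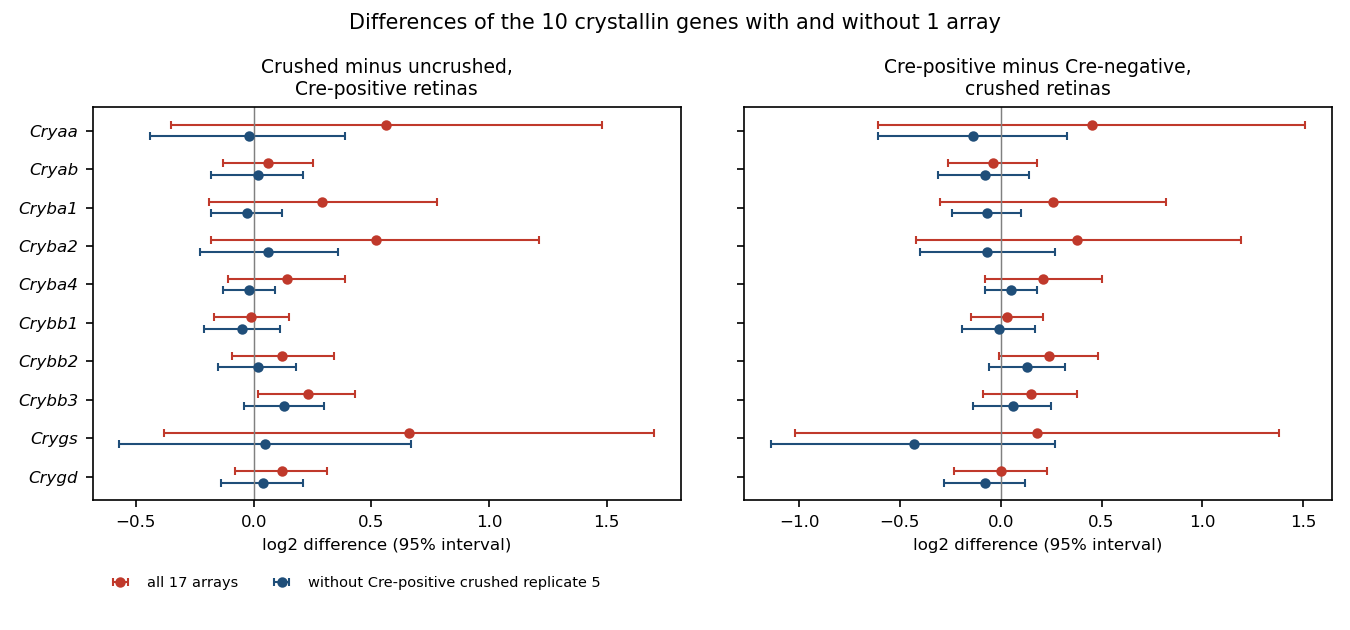
The log2 difference of each crystallin and its 95% interval (horizontal axis) are shown for crushed minus uncrushed Cre-positive retinas (left) and for Cre-positive minus Cre-negative crushed retinas (right), with all 17 labelled arrays in red and without Cre-positive crushed replicate 5 in blue. For Cryaa the left-hand value is 0.56 with all arrays and -0.02 without that replicate, and the blue intervals of Cryaa, Cryba1, Cryba2, Cryba4 and Crygs are narrower.

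How far the crystallins moved together was read against Cryaa over the 17 labelled arrays, in 9 relations with p-values from 100000 permutations adjusted over the 9. Crygs had a Pearson r of 0.96 (permutation p = 1e-05, the smallest these permutations can give, adjusted 9e-05) and a Spearman rho of 0.75 (permutation p = 0.00074, adjusted 0.0067). Without Cre-positive crushed replicate 5 and Cre-negative uncrushed replicate 2, the 2 arrays farthest from the Cryaa median, r was 0.76 (permutation p = 0.00096). Cryba1 had an r of 0.97 (adjusted permutation p = 0.00022), a rho of 0.55 (adjusted permutation p = 0.071) and an r of 0.63 (permutation p = 0.012) without those 2 arrays. Crygd had an r of 0.60 (adjusted permutation p = 0.032), a rho of 0.37 (adjusted permutation p = 0.18) and an r of 0.61 without the 2 arrays (permutation p = 0.015).

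For the other relations the correlation rested on the 2 arrays left out, or its p missed the threshold. Cryba2, Cryba4, Crybb2 and Crybb3 had r of 0.94, 0.90, 0.78 and 0.75 with Cryaa over 17 arrays (adjusted permutation p = 0.0019, 0.012, 0.013 and 0.013) and 0.27, 0.43, 0.19 and -0.20 over the other 15. Cryab and Crybb1 had r of 0.34 and 0.43 (adjusted permutation p = 0.17 and 0.11). Among the 15 arrays the relation was thus strongest between Cryaa and Crygs. With both measures centred on their slide means and labels permuted within the 5 slides, r over 17 arrays was 0.94 for Crygs (adjusted permutation p = 0.036), 0.97 for Cryba1 (adjusted permutation p = 0.048) and 0.74 for Crygd (adjusted permutation p = 0.13). The same within-slide r was 0.93 for Cryba2, 0.89 for Cryba4, 0.84 for Crybb2, 0.67 for Crybb3, 0.61 for Cryab and 0.28 for Crybb1 (adjusted permutation p = 0.065 to 0.24). Without the 2 farthest arrays the within-slide r was 0.70 for Crygs (permutation p = 0.076), 0.38 for Cryba1 (permutation p = 0.28) and 0.36 for Crygd (permutation p = 0.22), so none of these 3 held within slides without those arrays.

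**Figure D3:**
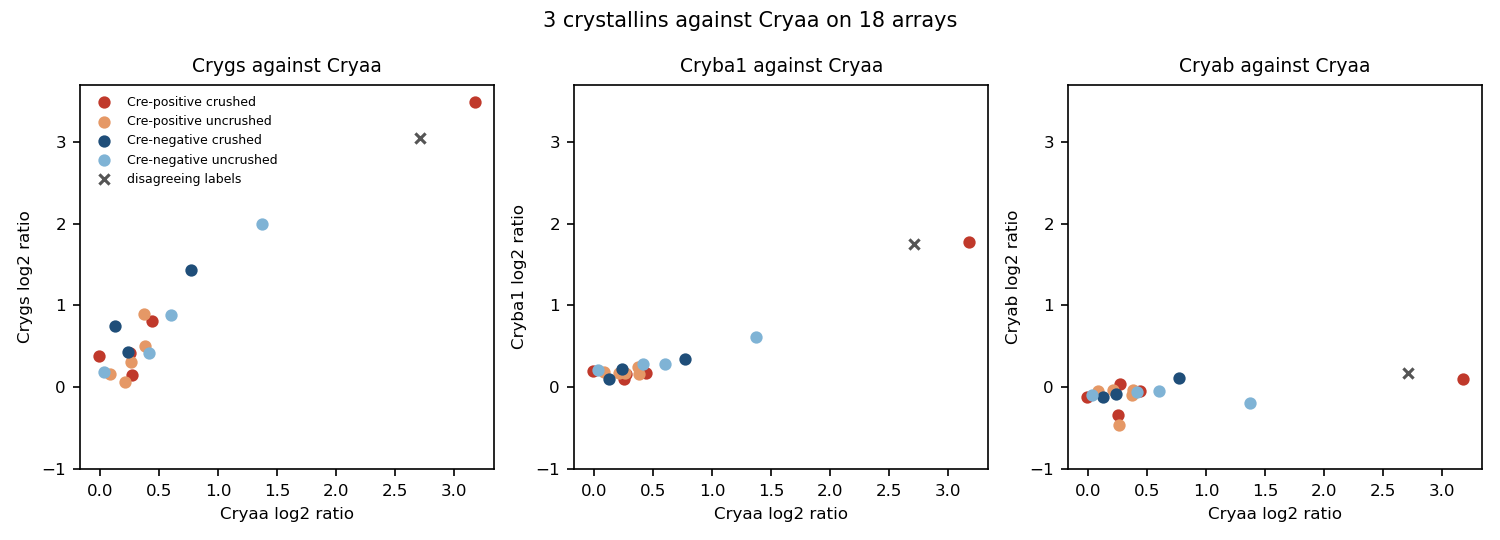
The log2 ratios of Crygs, Cryba1 and Cryab (vertical axes) are plotted against that of Cryaa (horizontal axis) on 18 arrays, coloured by group, with a cross for the array with disagreeing labels. Crygs climbs with Cryaa over the whole range, Cryba1 is high on 2 arrays at 1.78 and 1.75, and Cryab stays between -0.46 and 0.17.

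The promoters of the crystallins that shared high arrays are shown because crystallin genes of the lens are known to be driven through sites for Maf factors upstream of the gene. RefSeq windows of 250 bases before the start, on build GRCm38.p6, were given for 9 of the 10 genes. They lie at chr17:31677681-31677930 (plus strand) for Cryaa, chr16:22811411-22811660 (minus strand) for Crygs, chr11:77725294-77725543 (minus strand) for Cryba1, chr5:112255570-112255819 (plus strand) for Crybb1 and chr5:113070118-113070367 (minus strand) for Crybb2. The first 3 were high on the 2 arrays and Crybb1 was not. Crybb2 holds no match, yet both its probes were above the 16 other labelled arrays on the 2 arrays. Its brighter probe was at 0.56 and 0.52 there, and its second probe at 1.71 and 1.43. Capitals mark TGCTGA, the core of the element bound by Maf proteins, on either strand.
Cryaa: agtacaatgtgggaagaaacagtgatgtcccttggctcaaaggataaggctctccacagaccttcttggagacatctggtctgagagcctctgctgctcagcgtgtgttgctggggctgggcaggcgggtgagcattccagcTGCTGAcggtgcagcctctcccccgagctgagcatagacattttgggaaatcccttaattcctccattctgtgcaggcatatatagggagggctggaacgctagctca
Crygs: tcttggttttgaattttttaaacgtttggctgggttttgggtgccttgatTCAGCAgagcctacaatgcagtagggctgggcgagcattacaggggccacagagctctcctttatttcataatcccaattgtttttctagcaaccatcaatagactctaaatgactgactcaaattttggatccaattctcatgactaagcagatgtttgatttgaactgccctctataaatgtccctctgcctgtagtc
Cryba1: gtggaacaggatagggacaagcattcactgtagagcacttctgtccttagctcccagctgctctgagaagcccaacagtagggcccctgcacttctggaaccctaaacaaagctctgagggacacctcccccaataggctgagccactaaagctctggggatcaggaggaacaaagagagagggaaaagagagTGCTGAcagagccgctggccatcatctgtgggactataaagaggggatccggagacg
Crybb1: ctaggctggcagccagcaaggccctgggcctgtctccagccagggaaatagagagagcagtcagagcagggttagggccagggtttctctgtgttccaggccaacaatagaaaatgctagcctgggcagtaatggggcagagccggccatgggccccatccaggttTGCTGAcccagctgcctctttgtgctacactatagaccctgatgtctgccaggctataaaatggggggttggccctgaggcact
Crybb2: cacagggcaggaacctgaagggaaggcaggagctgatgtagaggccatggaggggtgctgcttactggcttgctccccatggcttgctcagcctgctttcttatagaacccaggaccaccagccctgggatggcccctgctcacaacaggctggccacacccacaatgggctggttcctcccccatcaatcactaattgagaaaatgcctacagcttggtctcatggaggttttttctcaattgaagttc
TGCTGA was present in 7 of the 9 windows, among them Crybb1, which was not high on the 2 arrays. It was absent from those of Crygd and of Crybb2, which was raised on the 2 arrays. It stood 108 bases before the start in Cryaa, 200 in Crygs, 57 in Cryba1 and 84 in Crybb1. Over all 32851 windows of the same length from RefSeq, 16.1% held it. TATAAA was in 3 of 9 windows and in 12.4% of all, and GAANNTTC, a core heat shock element, in 0 of 9 and in 6.7% of all. The motifs were searched on both strands, and a match is a description of the letters only.

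Genes that mark the lens but are not crystallins were read on the same arrays. Of 15 such genes on the array, 14 were well above background on Cre-positive crushed replicate 5, 13 on the array with disagreeing labels and 12 or 13 on the others, so most of the list was also read in retinas with low crystallins. Their mean log2 ratio was 0.72 on replicate 5 and 0.57 on the array with disagreeing labels, against 0.46 to 0.53 on the other Cre-positive crushed, 0.39 to 0.48 on Cre-positive uncrushed, 0.43 to 0.47 on Cre-negative crushed and 0.37 to 0.42 on Cre-negative uncrushed arrays. Their summed background-subtracted Cy5 intensity ranged over 73472 to 96288 for Cre-positive crushed, 72569 to 89259 for Cre-positive uncrushed, 71309 to 81774 for Cre-negative crushed and 82974 to 93468 for Cre-negative uncrushed retinas, with 87915 on replicate 5 and 81056 on the array with disagreeing labels. The sum thus did not set those 2 arrays apart, whereas the mean ratio did. Most of the sum came from Tdrd7, which was bright on every array. Its Cy5 intensity was 71564 on replicate 5, 67208 on the array with disagreeing labels and 61330 to 82787 over the labelled arrays. The sum therefore says little about the dimmer lens genes.

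Over the whole list, 7 of the 15 lens genes had their highest ratio of the 17 labelled arrays on replicate 5, as had 7.27% of the 25310 tested genes with a ratio on every array. Besides Bfsp1 and Mip, described next, these were Lenep at 1.36 against at most 1.35 on the others, Grifin at 0.70 against 0.64, Lgsn at 1.28 against 1.09, Capn3 at 1.11 against 0.94 and Caprin2 at 2.33 against 2.11. The array with disagreeing labels was above the other 16 for 2 of the 15, Bfsp1 and Grifin (0.68). The 5 fibre genes taken from this list for their membrane and filament roles gave a divided reading. Bfsp1, which encodes the beaded filament protein filensin, was 1.94 on replicate 5 and 1.40 on the array with disagreeing labels, against 0.74 to 1.29 on the other 16 arrays. Mip, the main membrane channel of the fibre cell, was well above background on 1 labelled array, replicate 5, with a Cy5 intensity of 126 there, 101 on the array with disagreeing labels and 82 to 102 on the rest. Lim2, an abundant fibre membrane protein, was not well above background on any array. The connexin Gja3 had -0.42 and -0.25 on the 2 high arrays in a range of -0.40 to -0.09, and Bfsp2 had 1.28 and 0.65 in a range of 0.29 to 1.37. Summed over these 5 fibre genes, Cy5 above background was 1082 on replicate 5 and 747 on the array with disagreeing labels, against 424 to 750 on the others, so that replicate 5 alone lay above the range. The part of lens tissue in the high crystallin values was not tested beyond these levels, and in bulk RNA more cells of a type and more RNA per cell cannot be told apart.

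Other eye tissues were read in the same way. The cornea keratin Krt12 was 5.55, 3.50 and 2.09 on Cre-positive uncrushed replicates 4 and 2 and Cre-positive crushed replicate 4, but 0.28 on Cre-positive crushed replicate 5 and 0.24 on the array with disagreeing labels. Crystallin means on those 3 arrays were 0.29, 0.15 and 0.16. The next highest Krt12 value, 1.47, was on Cre-negative crushed replicate 2, whose crystallin mean of 0.44 was the fourth highest of the 18. The pigment epithelium enzyme Rpe65 was 3.31 on Cre-positive uncrushed replicate 4 and 3.05 on the array with disagreeing labels, but 1.53 on Cre-positive crushed replicate 5 in a range of 0.84 to 3.31. The pigment cell genes Tyrp1 and Mlana ran the other way, at 4.49 and 3.36 on replicate 5 but 1.76 and 0.46 on the array with disagreeing labels, in ranges of 2.51 to 4.98 and 0.40 to 3.45. The pigment epithelium list thus held genes of both orders on these 2 arrays. The summed Cy5 above background of the 9 cornea, iris and ciliary body markers was 2523 on replicate 5 and 2864 on the array with disagreeing labels, with ranges of 1952 to 3564, 2324 to 53361, 2358 to 2861 and 2638 to 2844 in Cre-positive crushed, Cre-positive uncrushed, Cre-negative crushed and Cre-negative uncrushed retinas. For the 10 pigment epithelium markers it was 11516 and 13428 on the 2 arrays, with ranges of 4248 to 12784, 4846 to 16220, 3533 to 5166 and 5355 to 7716 in the same groups. Replicate 5 was thus not the highest array for either list. By this sum the array with disagreeing labels was above all labelled Cre-negative arrays for both lists. For the cornea list this was narrow, at 2864 against at most 2861. By mean log2 ratio that array was above them for the pigment epithelium list only, at 1.76 against at most 1.55. For the cornea list its mean was -1.54, inside the Cre-negative range of -1.60 to -1.25.

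**Figure D4:**
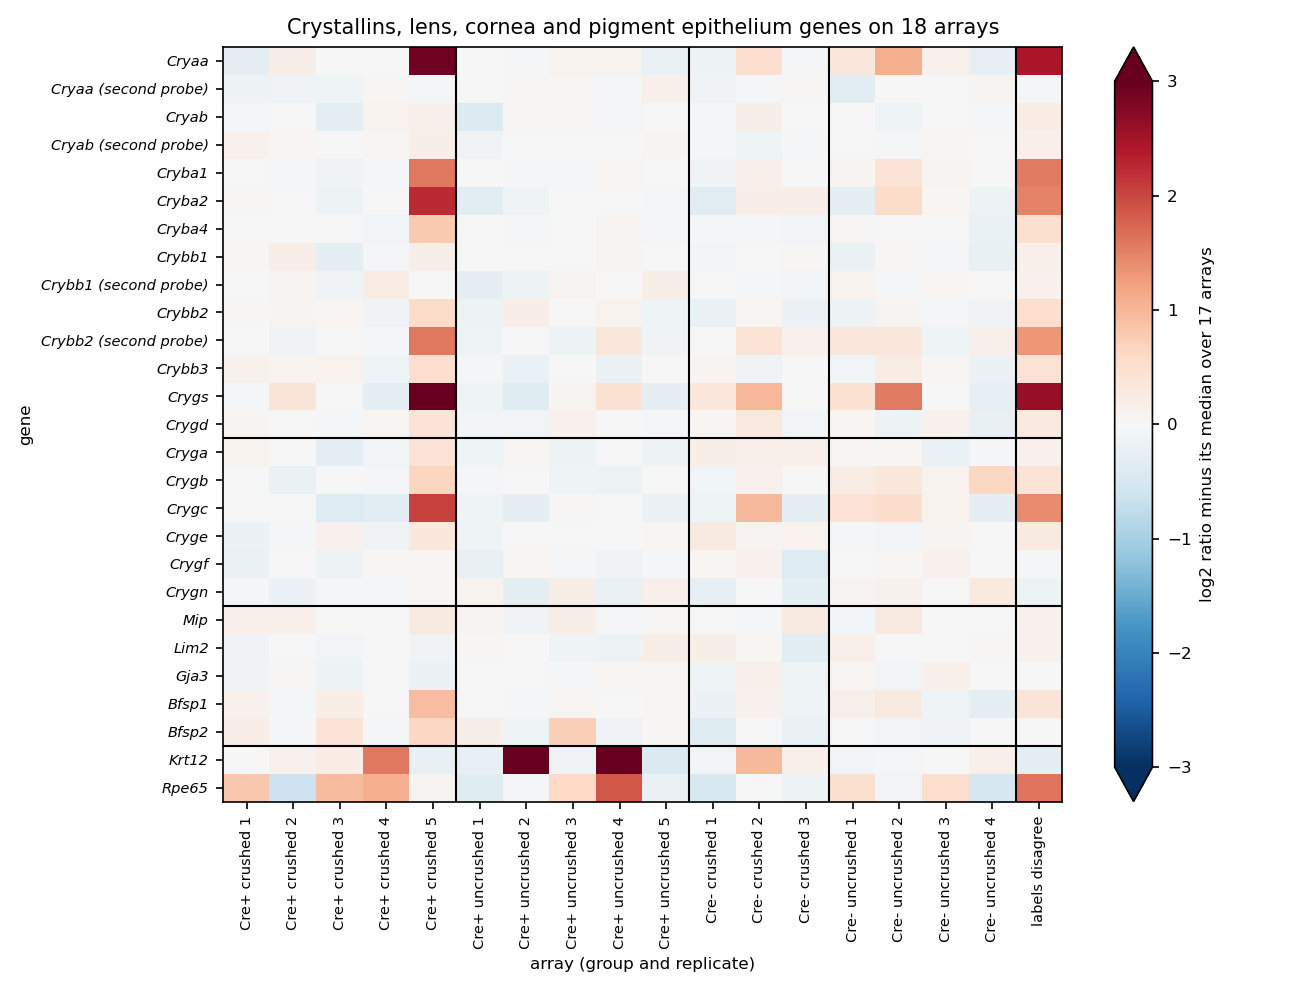
Colour gives the log2 ratio of each gene (rows) on each of 18 arrays (columns, by group and replicate) minus its median over the 17 labelled arrays, with blocks for the member probes, other gamma crystallins, lens fibre genes, and a cornea and a pigment epithelium gene. Red blocks for Cryaa, Cryba1, Cryba2, Crygs and Crygc stand on Cre-positive crushed replicate 5 and on the array with disagreeing labels, while Krt12 is red on other arrays and Mip and Lim2 are pale throughout.

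Replicate 5 differed from its companions in more than crystallins. It held 87 genes of 25359 whose log2 ratio was over 0.5 above that of every other labelled array, against 98 on Cre-positive uncrushed replicate 4 and at most 17 on any of the other 15. Cryaa, Cryba1, Cryba2, Cryba4 and Crygs were among the 87. No crystallin was among such genes on any other labelled array, but replicate 5 was one of the arrays compared. A crystallin highest on replicate 5 could therefore not be counted for another array. After replicate 5, Cre-negative uncrushed replicate 2 was highest for Cryaa and Crygs, at 1.37 and 2.0. The next labelled values were 0.77 and 1.43, on Cre-negative crushed replicate 2.

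By Pearson r with the crystallin mean over the 17 labelled arrays, the most similar genes outside the 10 were Crygc (0.93), Bfsp1 (0.89), Hyou1 (0.85), Ears2 (0.84), Mefv (0.82), Adar (0.82), Inka1 (0.81), Acot10 (0.81), Galk2 (0.80) and Wfdc17 (0.79). All 10 were at their highest on replicate 5, where the crystallin mean was also highest, so the choice by r favoured such genes. Without that array r was 0.80 for Crygc, 0.56 for Bfsp1, 0.52 for Galk2 and 0.34 for Hyou1 and Adar. It was 0.26 for Inka1, 0.19 for Ears2, 0.11 for Mefv, 0.01 for Wfdc17 and -0.33 for Acot10. Crygc, Bfsp1 and Adar alone among the 10 were also above the other 16 on the array with disagreeing labels. Without replicate 5 the 10 highest were Csrnp3 (0.86), Crygc (0.80), Atp9b (0.77), L1cam (0.72), Gtf2h4 (0.71), Csk (0.70), Golga3 (0.70), Atp11b (0.69), Paqr3 (0.69) and Gm8801 (0.69), over 16 arrays. Only Crygc, another gamma crystallin, was in both sets, and it was 2.06 on replicate 5, 1.42 on the array with disagreeing labels and -0.38 to 0.99 elsewhere.

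The wider families were counted from lists drawn up for this tissue. Of 14 other crystallin genes, which include enzyme crystallins such as Crym and Cryz, 12 were measured, and 0 rose and 0 fell in each of the 5 comparisons. Their median was 0.04 for crush in Cre-positive retinas. Crygc differed there by 0.38 (limma adjusted p = 0.77), which turned to -0.07 without Cre-positive crushed replicate 5 (limma adjusted p = 0.97). Crym, a thyroid hormone binding protein, differed by 0.20 (limma adjusted p = 0.36), and by 0.16 without that replicate (limma adjusted p = 0.72). In Cre-negative retinas the crush difference was 0.34 for Crym (limma adjusted p = 0.054, and 0.036 with replicate 5 left out of the shared spread) and 0.58 for Crybg1 (limma adjusted p = 0.089), neither past the threshold with all arrays. Of the 13 measured transcription factors of lens and crystallin genes none passed any test. In crushed retinas the Cre difference was 0.28 for Prox1 (limma adjusted p = 0.14) and 0.23 for Pax6 (limma adjusted p = 0.16), and the interaction for Prox1 was 0.41 (limma adjusted p = 0.24). Without replicate 5 none of the 13 passed either, and these values were 0.29, 0.24 and 0.42 (limma adjusted p = 0.19, 0.20 and 0.26). Of 13 measured lens genes other than crystallins, Capn3, a calpain protease, rose by 0.49 with crush in Cre-positive retinas (limma adjusted p = 0.0049), and Epha2, an ephrin receptor, rose by 0.39 with crush in Cre-negative retinas (limma adjusted p = 0.027), and no other passed. Without replicate 5 these differences were 0.41 (limma adjusted p = 0.005) and 0.39 (limma adjusted p = 0.018), and Caprin2 also passed in Cre-negative retinas, at 0.37 (limma adjusted p = 0.024). Crush was called for 0.769% of all genes in Cre-positive and 2.17% in Cre-negative retinas, and for 0.509% and 2.68% without replicate 5.

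The small heat shock proteins, to which the alpha crystallins belong, were read beside them. Of 7 measured members other than Cryaa and Cryab, 2 rose with crush in Cre-negative retinas, with 0.49 for Hspb1 (limma adjusted p = 0.0069) and 0.43 for Hspb8 (limma adjusted p = 0.011), and none passed in Cre-positive retinas. Hspb1, a chaperone induced in stressed cells, was -1.57, -1.65, -1.81, -1.54 and -1.58 in Cre-positive crushed retinas, against -1.14, -1.09 and -1.14 in Cre-negative crushed retinas. The 2 crushed groups did not overlap, and Hspb1 was 0.51 lower in the Cre-positive one (log2 difference -0.51, limma adjusted p = 0.0051), with an interaction of -0.58 (limma adjusted p = 0.046). Without replicate 5 the difference between crushed groups was -0.52 (limma adjusted p = 0.0096), while the interaction, at -0.59, no longer passed (limma adjusted p = 0.065). Cryab on the same arrays gave an interaction of 0.00 with its brighter probe and 0.16 with its second, and the difference between the 2 genes was not tested. Among cornea, iris and ciliary body markers and pigment epithelium markers none passed any test, of 7 and 10 measured. Of 12 Müller glia markers 3 rose and 1 fell with crush in Cre-positive retinas and 2 rose in Cre-negative retinas, and of 11 measured ganglion cell markers 3 fell in Cre-positive and 8 fell in Cre-negative retinas. Without replicate 5 the Müller glia counts were 3 rising and 0 falling in Cre-positive and 3 rising in Cre-negative retinas, and 1 ganglion cell marker fell in Cre-positive and 8 in Cre-negative retinas. Of all genes tested, 0.769% were called with crush in Cre-positive and 2.17% in Cre-negative retinas. Without replicate 5 these shares were 0.509% and 2.68%.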

How the data were processed

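Whole-retina RNA was hybridised to 18 2-colour Agilent arrays on 5 slides, Cy5 for retina and Cy3 for reference per the labels. The deposited scanner files give, for every spot, an unnormalized median intensity with that of the background around it, and processed intensity from Agilent Feature Extraction 10.7.3.1 per the file headers. The authors' deposited values (limma, per the submitters' processing notes) were taken as log2 of Cy5 over Cy3, because their columns correlated at 0.9994 to 1 with the ratios computed here (slopes 1 to 1.021, medians 0.015 to 0.0237, and 0.95 to 1 after centring each probe); their centring is not given in the sources used here.

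From the median intensities, limma 3.58.1 in R 4.3.3 gave the ratios used here (normexp, offset 50, then loess within each array). The offset pulls ratios of dim probes toward 0. The median was used because the files give it, where the plan had named the mean. Outlier spots were left out and spots of a probe averaged. The brightest probe stood for a gene, and 25359 genes with Cy5 well above background on at least 3 of 17 arrays were tested, 16778 with a symbol. All 10 crystallins passed this filter. Groups were fitted together (13 residual and 4.48 prior degrees of freedom, two-sided, Benjamini-Hochberg adjustment over all genes in a comparison, threshold 0.05), and intervals are 95% and unadjusted. The number of arrays limits the precision. Correlations used NumPy 2.4.6 and SciPy 1.17.1, figures matplotlib 3.10.9.

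Named genes were the 10 crystallins with every probe, list members that passed or up to 4 with the smallest p, the 10 genes most like the crystallin mean with and without the highest array, and Map3k12. Fibre genes, Krt12 and Rpe65 are named outside that rule, as defining markers of other eye tissues, chosen after their values were seen. Crystallins and the 8 gene lists (94 of 95 entries on the array) were chosen with earlier results of these data known. One planned marker is not reported here. Code was tested on simulated data. Alternatives were other background correction, signals, scaling and filters, slide as a block, array weights, the disagreeing array in either group, and each array left out. Relations within slides, and second probes and gene lists without the highest array, were added after the data were seen.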

Additional observations from a re-analysis of the deposited data

Results flagged for a closer look

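In groups of 4 or 5 arrays, 42 sets of ratios were searched for 1 array set apart from its group by Dixon's gap, and 8 were found. Cre-positive crushed replicate 5 was high in 6 of them, at 3.18 for Cryaa, 1.78 for Cryba1, 2.44 for Cryba2, 0.86 for Cryba4, 1.71 for the second Crybb2 probe and 3.49 for Crygs. The other 2 were low, at -0.46 for Cryab on Cre-positive uncrushed replicate 1 and -0.12 for Cryba4 on Cre-negative uncrushed replicate 4.

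The array with disagreeing labels, which entered no comparison, lay above all 7 labelled Cre-negative arrays for 13 of 14 crystallin probes, against 13.4% of all probes. Its log2 ratios were 2.71 for Cryaa, 3.05 for Crygs, 1.75 for Cryba1, 1.69 for Cryba2, 0.55 for Cryba4, 0.95 for Crybb3 and 0.67 for Crygd. For Crygd the highest Cre-negative array had the same value to the precision printed. They were 0.52 and 1.43 for the 2 Crybb2 probes, 0.30 and 0.29 for the 2 Crybb1 probes, and 0.17 and 0.04 for the 2 Cryab probes.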

How the results depend on the processing

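No crystallin was called by limma under any of the 31 settings tried, with a smallest adjusted p of 0.183 and at most 1 crystallin at an unadjusted p under 0.05. Of 1530 differences recomputed, 1437 kept their sign and 93 changed it, all of them between values that missed the threshold, and the cause was not tested. No paired analysis was possible because the labels give no replicate numbers that groups share. Several crystallin probes lay close to background on most arrays, where ratios are pulled toward 0. With the array of disagreeing labels placed among Cre-negative crushed retinas, differences were 0.36 (Cryaa), 0.26 (Cryba1), 0.35 (Cryba2), 0.10 (Cryba4), 0.096 (Crybb2), 0.099 (Crybb3) and 0.54 (Crygs) for crush in Cre-negative retinas, and -0.13 (Cryaa), -0.12 (Cryba1), -0.013 (Crybb1), -0.049 (Crygd) and -0.37 (Crygs) for Cre in crushed retinas. With it placed among Cre-negative uncrushed retinas, they were 0.050 (Cryab) and 0.038 (Crygd) for the interaction, and -0.064 (Cryba4), -0.056 (Crybb2) and -0.036 (Crygd) for Cre in uncrushed retinas. Without Cre-positive crushed replicate 5 and Cre-positive uncrushed replicate 4 together, they were -0.017 (Cryba1) for crush in Cre-positive retinas, and -0.14 (Cryaa), -0.066 (Cryba1), -0.069 (Cryba2), -0.0098 (Crybb1), -0.079 (Crygd) and -0.43 (Crygs) for Cre in crushed retinas. Array weights gave 0.028 (Crybb1) for crush in Cre-positive retinas, and 0.031 (Crybb3) for crush in Cre-negative retinas, and 0.029 (Cryab) and 0.024 (Crygd) for the interaction, and 0.015 (Cryab) for Cre in crushed retinas. Leaving out background subtraction gave 0.0037 (Cryba2) and 0.041 (Cryba4) for crush in Cre-negative retinas, and -0.018 (Crygd) for Cre in crushed retinas. Processed Cy5 alone gave 0.053 (Cryba2) and 0.060 (Cryba4) for crush in Cre-negative retinas, and 0.016 (Cryab) and -0.022 (Cryba4) for Cre in uncrushed retinas, and -0.11 (Crybb1) for Cre in crushed retinas. Processed signals of both channels gave 0.17 (Cryba2), -0.20 (Crybb1) and 0.16 (Crybb3) for crush in Cre-negative retinas, and 0.079 (Crygd) for the interaction, and -0.030 (Cryba4), -0.049 (Crybb2) and -0.016 (Crygd) for Cre in uncrushed retinas. Slide as a fixed block gave 0.047 (Cryba2) for Cre in uncrushed retinas.

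For crush in Cre-positive retinas, leaving out each array in turn gave -0.024 to 0.77 (Cryaa), -0.021 to 0.13 (Cryab), -0.033 to 0.39 (Cryba1), -0.019 to 0.19 (Cryba4) and -0.057 to 0.057 (Crybb1). For crush in Cre-negative retinas, leaving out each array in turn gave -0.43 to 0.028 (Cryaa), -0.0074 to 0.11 (Cryab), -0.11 to 0.16 (Cryba2), -0.067 to 0.068 (Crybb3) and -0.29 to 0.37 (Crygs). For the interaction, leaving out each array in turn gave -0.085 to 0.067 (Cryab) and -0.12 to 0.068 (Crygd). For Cre in uncrushed retinas, leaving out each array in turn gave -0.066 to 0.045 (Cryab), -0.24 to 0.026 (Cryba2), -0.019 to 0.061 (Cryba4) and -0.022 to 0.093 (Crygd). For Cre in crushed retinas, leaving out each array in turn gave -0.14 to 0.66 (Cryaa), -0.086 to 0.031 (Cryab), -0.066 to 0.36 (Cryba1), -0.069 to 0.53 (Cryba2), -0.016 to 0.098 (Crybb1), -0.088 to 0.10 (Crygd) and -0.43 to 0.46 (Crygs).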

Other observations

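The 2 arrays with the highest crystallins shared other genes, which were chosen here after their values were seen. Of the 82 genes outside the 10 crystallins that stood over 0.5 above every other labelled array on Cre-positive crushed replicate 5, 27 (32.9%) were also above the other 16 labelled arrays on the array with disagreeing labels, as were 7.22% of all genes tested. With Crygc and Bfsp1 these included genes that differ with crush, so both the 7 other crushed and the 9 uncrushed arrays are given. Bcl3, a regulator of NF-kappaB, was -0.21 on replicate 5 and -1.33 on the array with disagreeing labels, against -2.59 to -1.69 on the other crushed and -3.83 to -3.02 on the uncrushed arrays. Edn2, which encodes endothelin 2, was 4.58 and 4.22 on the same 2 arrays, against 3.40 to 3.98 and 1.69 to 3.04. Both genes rose with crush, Bcl3 by 1.55 in Cre-positive and 1.5 in Cre-negative retinas (limma adjusted p = 0.014 and 0.028) and Edn2 by 1.39 and 1.87 (limma adjusted p = 0.00024 and 8.5e-06), and without replicate 5 they rose by 1.16 and 1.24 in Cre-positive retinas (limma adjusted p = 0.00026 and 9.8e-05).

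Serpina3n, a protease inhibitor of reactive astrocytes, was 1.76 and 1.14 on these arrays, against 0.10 to 0.91 on the other crushed and -0.20 to 0.38 on the uncrushed arrays, and Socs3, a feedback inhibitor of cytokine signalling, was -1.0 and -1.53, against -1.87 to -1.55 and -2.22 to -1.96. Ciliary neurotrophic factor, Cntf, was 1.36 and 0.91, against 0.50 to 0.79 and 0.20 to 0.62, and the microglial complement gene C1qa was 2.43 and 2.13, against 1.63 to 1.93 and 0.83 to 1.61. These 6 genes were picked from those for which both arrays lay above all other labelled arrays, crushed and uncrushed. That position is therefore the rule of choice and not a result. With all 17 arrays, Serpina3n and C1qa rose with crush in Cre-positive retinas (limma adjusted p = 0.02 and 0.0072). In Cre-negative retinas they did not pass (limma adjusted p = 0.35 and 0.24). Cntf and Socs3 passed in neither (limma adjusted p = 0.14 and 0.28 for Cntf, 0.071 and 0.21 for Socs3). Without replicate 5, Socs3 passed in both and Cntf in Cre-negative retinas. The ganglion cell marker Rbpms2, which fell by 1.69 with crush in Cre-negative retinas (limma adjusted p = 3.5e-11), was 0.62 on the array with disagreeing labels. Labelled Cre-negative arrays had 0.65 to 0.72 when crushed and 2.3 to 2.48 when uncrushed. Cre-positive arrays other than replicate 5 had 2.05 to 2.21 when crushed and 2.29 to 2.46 when uncrushed. The value of 0.62 was not used to place the array in a group. None of these joint values was tested.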
